A study of Yarrowia lipolytica with 4 samples.

Results

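Aspartic peptidases were followed here as the genes of Yarrowia lipolytica whose deposited description contains "aspartic peptidase", "aspartyl protease" or "aspartic protease". The rule took 42 of 6797 genes, and all 42 carry the description of a protein with an aspartic peptidase domain. RNA was measured in 2 strains of this oleaginous yeast. F19 is a strain from a study that built a genome-wide library for CRISPR interference, in which a guide RNA brings an inactive Cas9 to a gene to repress it, and used it in work on tolerance of furfural and acetic acid. WLH is its control strain. The labels give PO1f, a leucine- and uracil-requiring laboratory strain, as the background of both, and both grew in medium without leucine at 30 °C for 48 h with 2.4 mM furfural, an aldehyde released from plant biomass. Each strain had 2 libraries, and every library came from cells with furfural. Which gene is repressed in F19 is not given in these sources, and its transcript was therefore not examined. Nothing in the labels says that the libraries of one strain were separate cultures; the spread that p-values rest on may then be technical.

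Aspartic peptidases cut proteins with a pair of aspartate residues in the active site, and most work in acidic surroundings and are made as inactive precursors. In Saccharomyces cerevisiae the family includes the vacuolar proteinase A (Pep4), which activates other vacuolar hydrolases, the yapsins, which are anchored at the cell surface and process proteins there, and the secreted Bar1. Y. lipolytica is known for secreting an acid protease of this family and an alkaline protease of the subtilisin family, and the pH of the medium governs which of them is made. The deposited annotation separates few of the 42 genes. Gene ontology terms are given for 2 of them and an ortholog number for 3, and one of those 3 numbers, that of BKA90DRAFT_158812, is placed in an aminoacyl-tRNA pathway. Gene names for the remaining members, such as those of the acid extracellular protease or single yapsins, were not assigned here.

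In F19 the transcripts of this family were made up differently from those in WLH. The most abundant member, the gene annotated as vacuolar proteinase A, was 1.59-fold lower, while BKA90DRAFT_137447 and BKA90DRAFT_137254, which are among the 4 members of highest mean FPKM, were 2.79-fold and 2.50-fold higher. BKA90DRAFT_135643, which stood between them in mean FPKM, did not pass (1.13-fold, adjusted p = 0.353). Of the 34 members with enough counts to be tested, 16 rose, 5 fell and 13 did not pass, at a Benjamini-Hochberg adjusted p of 0.05 (edgeR, quasi-likelihood test). The 16 rises were 47.1% and the 5 falls 14.7% of the tested members, against 25.9% and 25.5% of all 6414 genes tested, of which 51.4% passed in one direction or the other. By at least 2-fold, 7 members rose and 4 fell, where 10.4% of all genes rose and 9.18% fell by that much. The median log2 fold change was 0.60 over the tested members and 0.01 over all genes tested. Without WLH replicate 1 the member counts were 9 rises and 4 falls (14.8% of all genes in each direction), and without WLH replicate 2 also 9 and 4 (12.5% and 13.3%). Without F19 replicate 2 there were 12 rises and 8 falls (22.6% and 22.5%), and the median was 0.29. The filter on low counts left 34 of the 42 members in the fit of all 4 libraries, 36 without WLH replicate 1 or F19 replicate 2, and 37 without WLH replicate 2; the counts describe those members, not all 42.

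**Figure D1:**
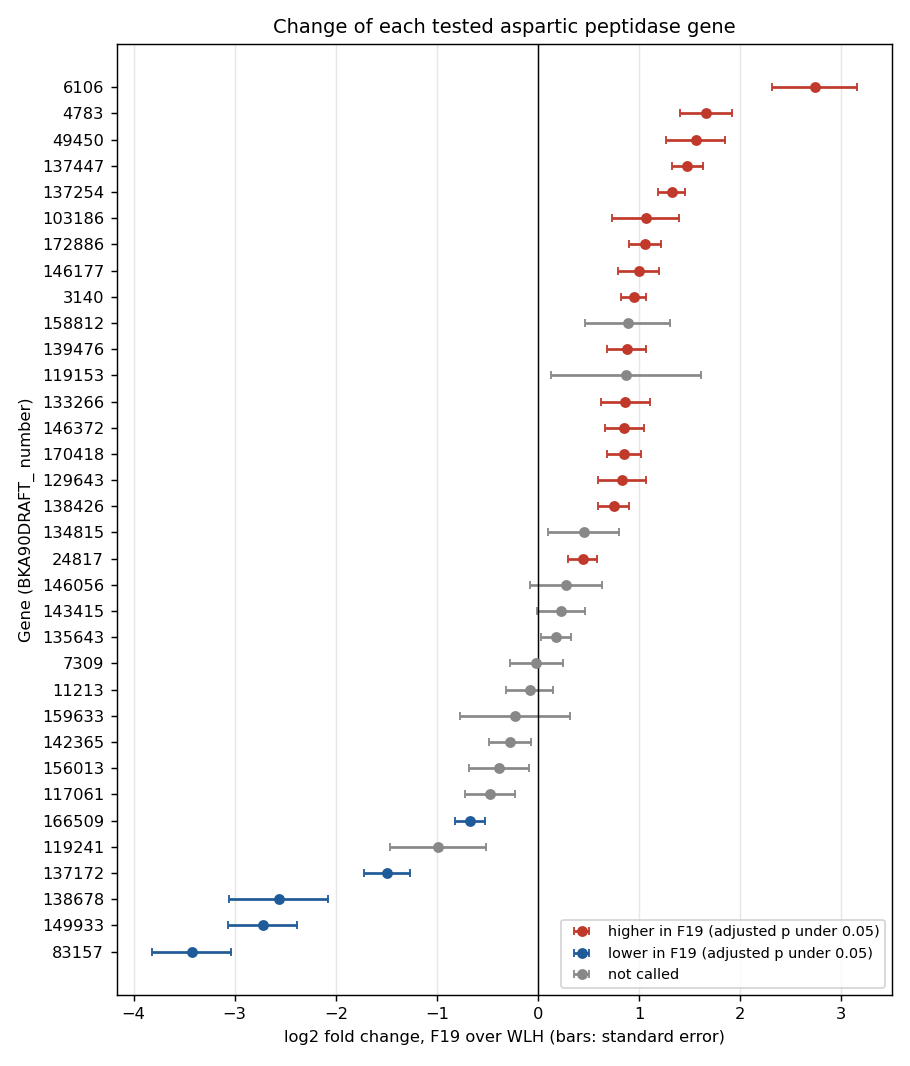
Log2 fold change of F19 over WLH for each of the 34 tested aspartic peptidase genes, with its standard error as a bar; red points rose, blue points fell and grey points did not pass an adjusted p of 0.05. The values run from -3.43 for BKA90DRAFT_83157 to 2.74 for BKA90DRAFT_6106, and 16 genes rose against 5 that fell.

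The libraries held 19486940 and 18796443 counts on genes for F19, and 24129664 and 18244313 for WLH. Members took 0.361% and 0.347% of these counts in F19, against 0.256% and 0.252% in WLH. Across the 6414 tested genes, taken as a description since genes are not replicates, Pearson's r of log2(CPM + 1) was 0.988 within F19, 0.994 within WLH and at most 0.936 across strains. The libraries of a strain were less alike for the members in F19. Their levels differed between F19 replicates by a median of 1.25-fold, against 1.13-fold for all tested genes, and 25 of the 34 members were higher in F19 replicate 2, against 50.1% of all tested genes. In WLH the medians were 1.10-fold and 1.11-fold, with 18 of 34 higher in replicate 2. What lies behind the F19 difference was not tested. CPM values below are TMM-scaled counts, a scale on which one gene can be set side by side across libraries. FPKM are the authors' deposited values per exonic length and compare levels between genes.

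BKA90DRAFT_166509 (ML755982.1, 103920 to 105394, minus strand) is the member annotated with the ortholog number of saccharopepsin, another name for proteinase A, and with terms for the vacuole, autophagy and vacuolar protein processing. It had 754 and 762 FPKM in the F19 libraries, against 1041 and 1014 FPKM in the WLH libraries, and was the highest member in all 4. On the CPM scale it stood at 903 and 937 in F19, against 1493 and 1438 in WLH. The strains did not overlap, and its log2 fold change was -0.67 ± 0.15 (SE; adjusted p = 0.00928). That call was lost without WLH replicate 1 (adjusted p = 0.0878) and without WLH replicate 2 (adjusted p = 0.0776), where the lone WLH library is taken to vary like the F19 libraries. The log2 fold change stayed between -0.70 and -0.44 over the 15 alternatives. It took 27.5% and 28.9% of the counts of all members in F19, against 53.5% and 52.9% in WLH. In FPKM, which weights by length, its share of the summed level was 37.8% and 38.6% in F19, against 63.2% and 62.8% in WLH.

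**Figure D2:**
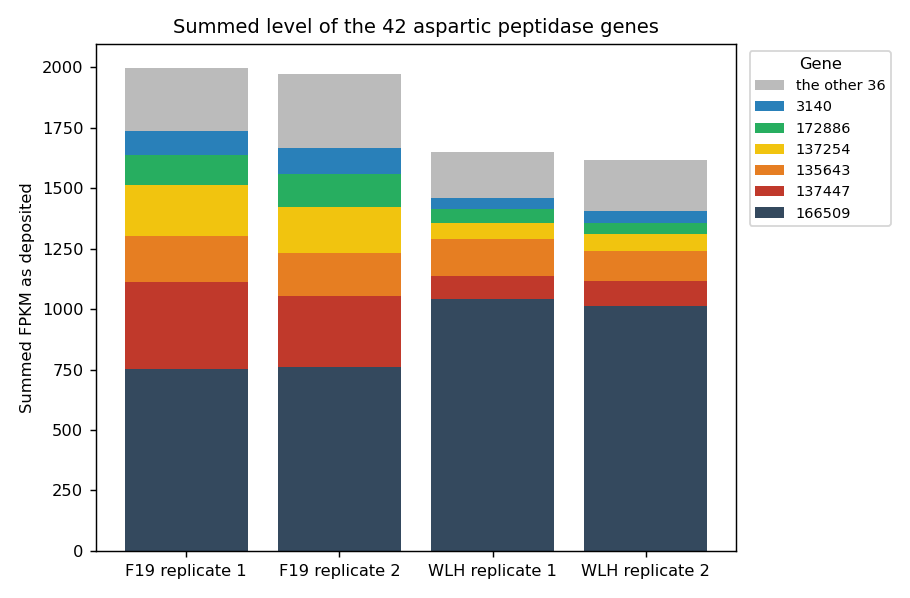
Summed FPKM of the 42 aspartic peptidase genes in each library as stacked bars, with the 6 genes of highest mean FPKM in colour and the other 36 in grey. The dark bar of BKA90DRAFT_166509 is 754 and 762 FPKM in F19, against 1041 and 1014 FPKM in WLH, while the whole bar is taller in F19.

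Summed over all 42 members, the level was 3287 and 3238 CPM in F19, against 2791 and 2716 CPM in WLH. That is a ratio of 1.18 between the strain means. Leaving out BKA90DRAFT_166509, the sum was 2384 and 2301 CPM in F19, against 1299 and 1278 CPM in WLH, a ratio of 1.82. Both F19 libraries lay above both WLH libraries in each sum. The exact two-sided permutation test gave p = 0.33 for both sums (n = 2 libraries a strain), which is the smallest p that 2 against 2 libraries can give.

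The next most abundant members are long genes without an ortholog number. BKA90DRAFT_137447 (ML756001.1, 123464 to 126128, plus strand, 2665 exonic bases) had 876 and 727 CPM in F19, against 279 and 296 CPM in WLH. Its strains were far apart relative to their libraries, and the log2 fold change was 1.48 ± 0.16 (SE; adjusted p = 0.000761). Set against BKA90DRAFT_166509 within each library, which removes any scaling between libraries, its FPKM was 0.477 and 0.382 of that of the vacuolar gene in F19, and 0.0921 and 0.101 of it in WLH. The vacuolar gene was itself 1.59-fold lower in F19, so this ratio holds the changes of both genes. Among the members BKA90DRAFT_137447 had the following ranks. It was 2 in both F19 libraries, against 3 in both WLH libraries. BKA90DRAFT_137254 (ML756000.1, 62293 to 64636, plus strand, 2344 exonic bases) had 453 and 417 CPM in F19, against 174 and 173 CPM in WLH. The log2 fold change was 1.32 ± 0.13 (SE; adjusted p = 0.000698), the lowest p of the family.

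BKA90DRAFT_135643 (ML755990.1, 39551 to 41736, minus strand, 2186 exonic bases) is of similar length and abundance but was not called. It had 375 and 369 CPM in F19, against 362 and 298 CPM in WLH, so that the F19 libraries lay only just above the higher WLH library. Its log2 fold change was 0.17 ± 0.15 (SE; adjusted p = 0.353). With library totals in place of TMM factors it passed narrowly (log2 fold change 0.41, adjusted p = 0.0498), where the median of all genes moved to 0.24. It also passed in limma on log2(FPKM + 1) (adjusted p = 0.043) and with a pseudocount of 0.1 (adjusted p = 0.0428). In these limma fits the median of all genes was likewise moved, to 0.23 and 0.24. Its rank among the members was 4 in both F19 libraries, against 2 in both WLH libraries. BKA90DRAFT_172886 (ML755985.1, 365107 to 366144, minus strand, 1038 exonic bases), the next member by mean FPKM, had 117 and 134 CPM in F19, against 67.4 and 52.6 CPM in WLH. It rose 2.09-fold (log2 fold change 1.06 ± 0.16, SE; adjusted p = 0.00205).

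**Figure D3:**
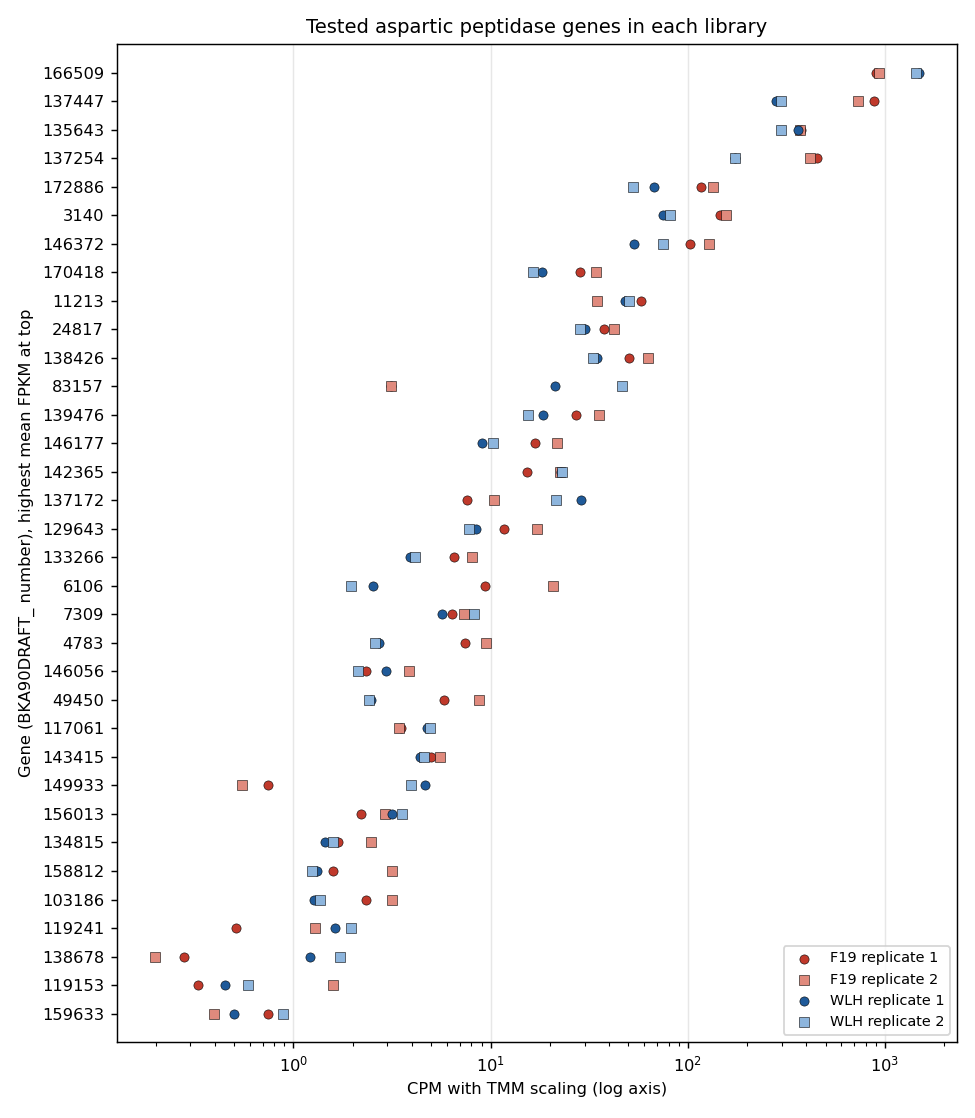
CPM of each tested aspartic peptidase gene in every library on a log axis, ordered from the highest to the lowest mean FPKM; red symbols are F19 and blue symbols WLH. Levels span from under 1 CPM to 1493 CPM, and BKA90DRAFT_83157 stands out with both F19 symbols at 3.13 CPM against 21.1 and 46.5 CPM in WLH.

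The largest rises by fold were in members of low level. BKA90DRAFT_6106 (ML755988.1, 114653 to 116303, minus strand) had 9.38 and 20.9 CPM in F19, against 2.53 and 1.95 CPM in WLH. It rose 6.67-fold (log2 fold change 2.74 ± 0.42, SE; adjusted p = 0.00234), with F19 libraries more than 2-fold apart yet both above WLH, and the log2 fold change was 2.06 without F19 replicate 2. Its annotated span ends 1 base from that of the pyruvate kinase gene BKA90DRAFT_6105, which lies on the opposite strand and had 699 and 896 CPM in F19, against 1388 and 1176 CPM in WLH. That abundant neighbour was lower in F19 (log2 fold change -0.68, adjusted p = 0.0199), opposite in direction to the peptidase gene. Its call was lost with library totals (adjusted p = 0.0656), in limma on log2(FPKM + 1) (0.0533) and in each fit lacking a WLH library (0.155 for replicate 1 and 0.0761 for replicate 2). BKA90DRAFT_4783 (ML756087.1, 5044 to 6290, minus strand) had 7.42 and 9.43 CPM in F19, against 2.71 and 2.60 CPM in WLH. Its rise was 3.16-fold (log2 fold change 1.66 ± 0.26, SE; adjusted p = 0.00237). It too lies 1 base from a convergent neighbour, BKA90DRAFT_4782, described by a translation initiation factor eIF2A domain. That neighbour had 167 and 179 CPM in F19, against 198 and 190 CPM in WLH, and was not called (adjusted p = 0.299).

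A further pair of low members overlap a gene on the other strand, and the labels' protocols record no strand-marking step, so reads of the overlap cannot be assigned with certainty. BKA90DRAFT_49450 (ML756070.1, 56578 to 58051, minus strand) had 5.84 and 8.69 CPM in F19, against 2.49 and 2.43 CPM in WLH. It rose 2.95-fold (log2 fold change 1.56 ± 0.29, SE; adjusted p = 0.00489), while its overlapping partner BKA90DRAFT_49462, of unknown function, had 10.7 and 9.93 CPM in F19, against 8.09 and 8.28 CPM in WLH (adjusted p = 0.186). BKA90DRAFT_103186 (ML756049.1, 15731 to 17503, plus strand) had 2.33 and 3.18 CPM in F19, against 1.27 and 1.36 CPM in WLH. Its rise of 2.09-fold (log2 fold change 1.07 ± 0.33, SE; adjusted p = 0.0324) went along with one of its overlapping partner BKA90DRAFT_117413 (log2 fold change 0.92, adjusted p = 0.0434). The call of BKA90DRAFT_103186 was lost in DESeq2 (adjusted p = 0.0683) and in each edgeR fit lacking WLH replicate 1 (0.158), WLH replicate 2 (0.131) or F19 replicate 2 (0.135). That of its partner was lost in the same 4 fits (adjusted p of 0.0886, 0.167, 0.17 and 0.17) as well as with the replicate block (0.0527) and in limma on log2(FPKM + 1) (0.0625).

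The other 9 rises were under 2-fold, from 1.36-fold for BKA90DRAFT_24817 to 2.00-fold for BKA90DRAFT_146177. BKA90DRAFT_3140, the sixth member by mean FPKM, was among them with 145 and 157 CPM in F19, against 75.0 and 81.7 CPM in WLH, a rise of 1.93-fold (adjusted p = 0.00127). It was the only 1 of the 9 whose call held in every alternative run, and each of the other 8 lost it in at least one fit that left out a library. BKA90DRAFT_133266, which the annotation places in the cell wall and the extracellular region with a role in cell wall organization, had 6.54 and 8.09 CPM in F19, against 3.89 and 4.14 CPM in WLH. It rose 1.82-fold (adjusted p = 0.0229), a call lost in each fit lacking F19 replicate 2 (adjusted p = 0.0851), WLH replicate 1 (0.118) or WLH replicate 2 (0.0957). BKA90DRAFT_3140 and BKA90DRAFT_133266 were chosen for mention after their values were seen.

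Besides the vacuolar gene, 4 members fell, each by more than 2-fold. BKA90DRAFT_83157 (ML756001.1, 140782 to 141993, minus strand) had 3.13 CPM in each F19 library, against 21.1 and 46.5 CPM in WLH. The WLH libraries were more than 2-fold apart, yet both were well above F19, and the log2 fold change was -3.43 ± 0.39 (SE; adjusted p = 0.000926), and -2.75 without WLH replicate 2. It lies on the same scaffold as BKA90DRAFT_137447, which rose, with 14653 bases between them, the shortest distance between members. Its neighbour at 468 bases, BKA90DRAFT_168385 of unknown function, rose in F19 (log2 fold change 2.40, adjusted p = 0.000371). Per length, BKA90DRAFT_83157 ranked 25th among members in both F19 libraries, against 12th and 7th in WLH replicates 1 and 2.

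BKA90DRAFT_137172 (ML755999.1, 162439 to 163879, plus strand) had 7.56 and 10.4 CPM in F19, against 28.8 and 21.6 CPM in WLH. It fell 2.82-fold (log2 fold change -1.49 ± 0.23, SE; adjusted p = 0.00239). BKA90DRAFT_149933 (ML756106.1, 3141 to 4320, plus strand) had 16 and 11 counts in F19, against 103 and 67 counts in WLH, or 0.747 and 0.546 CPM against 4.66 and 3.96 CPM. It fell 6.61-fold (log2 fold change -2.72 ± 0.34, SE; adjusted p = 0.0012), and a divergent neighbour 2467 bases away, the Hsp70 family gene BKA90DRAFT_105532, fell as well (log2 fold change -2.10, adjusted p = 0.000566). The nearest neighbour of BKA90DRAFT_149933, the convergent BKA90DRAFT_8469 at 102 bases, was not called (log2 fold change 0.35, adjusted p = 0.376). BKA90DRAFT_138678 (ML756011.1, 60135 to 61624, plus strand) rests on 6 and 4 counts in F19, against 27 and 29 counts in WLH. Its fall of 5.92-fold (log2 fold change -2.57 ± 0.49, SE; adjusted p = 0.00507) was lost without WLH replicate 2 (adjusted p = 0.0571), and it met the count filter through its WLH libraries. The strains did not overlap for any of these 3 members, nor for 8 of the 13 members that were not called. The share of all genes without overlap was not computed.

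The 13 members that did not pass had log2 fold changes from -0.99 to 0.89 with adjusted p from 0.115 to 0.958, and 7 of them had fewer than 100 counts in every library. BKA90DRAFT_11213, the most abundant of them after BKA90DRAFT_135643, had 58.3 and 34.6 CPM in F19, against 48.0 and 50.5 CPM in WLH, so the WLH values lay between those of F19. Its direction changed with the library left out, with a log2 fold change of -0.51 without F19 replicate 1 and 0.26 without F19 replicate 2. BKA90DRAFT_11213, BKA90DRAFT_142365, BKA90DRAFT_158812, BKA90DRAFT_119241 and BKA90DRAFT_119153 each passed in 1 of the alternatives. The 8 members too low to test had from 0 to 17 counts in any library. BKA90DRAFT_165493 had 0 counts in both F19 libraries, against 7 and 0 counts in WLH, and BKA90DRAFT_155572 had 0 in both F19 libraries, against 2 and 1 counts in WLH. BKA90DRAFT_163906 had 0 and 1 counts in F19, against 17 and 4 counts in WLH. With no filter on low counts edgeR called it lower (adjusted p = 0.0271), and DESeq2 did not (adjusted p = 0.0506).

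Most of the family was weakly transcribed in both strains. The median FPKM of the 42 members was 3.86 and 5.42 in the F19 libraries, against 3.37 and 3.05 in the WLH libraries. The median of all genes was 36.1 and 35.0 FPKM in F19, against 30.2 and 30.2 FPKM in WLH. It was thus higher in F19 as well. At least 100 FPKM were reached by 6 members in each F19 library, against 2 and 3 members in WLH replicates 1 and 2. BKA90DRAFT_137447 lay near that cutoff in WLH, with 95.9 and 103 FPKM. Below 1 FPKM were 13 and 11 members in F19, against 14 and 12 in WLH. These counts use deposited FPKM, whose median over all genes differs between the strains. The shares of all genes at these levels were not computed. The members lie on 36 of the 156 scaffolds with genes, and 0 pairs lie within 10000 bases of each other, so the family forms no tandem arrays by this measure.

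Exonic length varied from 789 to 2970 bases and went weakly with the change. The tested members were divided at their median of 1438 bases, a split drawn after the values were seen. Of the 17 longer members 10 rose and 2 fell, against 6 rises and 3 falls among the 17 others. Over all genes tested, of any length, 25.9% rose and 25.5% fell, and their shares by length class were not computed. Spearman's rho between length and log2 fold change was 0.23 over the 34 tested members and 0.17 over all 6414 tested genes, in which all points share the same 4 libraries. With mean FPKM, rho was 0.20 over the members and -0.24 over all genes.

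The authors' deposited table of genes they called, all of which change by at least 2-fold, holds 13 of the 42 members, 8 higher and 5 lower in F19. The whole of the authors' deposited table names 9.87% of the genes they tested as higher and 8.61% as lower. The number they tested, 6760, was inferred here from their adjusted over unadjusted p-values. It includes the 11 members called here with at least 2-fold changes. The other 2 are BKA90DRAFT_146177, with a log2 fold change of 1.00 in the authors' deposited table, and BKA90DRAFT_163906, which was too low to be tested here, with -4.39 in the authors' deposited table.

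Genes with other roles in protein breakdown were set beside the family. A list of 67 other tested peptidases was taken by words in the description, and in it 10 rose, 25 fell and 32 did not pass, with a median log2 fold change of -0.27. One of the falls, BKA90DRAFT_134848, is a signal peptide peptidase, which is an intramembrane aspartic protease outside the rule used here. The 24 tested genes whose description has a metallopeptidase word or family number accounted for 14 of the falls (58.3% of the 24). With all 4 libraries they had 0 rises in edgeR or DESeq2, and 0 at an unadjusted p under 0.05 in either. Their median was -0.43. They included an M1 family peptidase, BKA90DRAFT_132917, which had 76.1 and 74.9 CPM in F19, against 213 and 232 CPM in WLH, and fell 2.95-fold. They also included BKA90DRAFT_134669, with the ortholog number of a subunit of the mitochondrial processing peptidase that trims imported proteins, which fell 2.43-fold. An M18 peptidase, BKA90DRAFT_135517, fell 2.33-fold. Of 13 tested genes whose description names a serine or S8 peptidase, 4 rose (30.8%) and 1 fell (7.69%), with a median of 0.42. The other 30 tested genes have neither kind of word, and 6 of them rose (20%) and 10 fell (33.3%). That remainder is no class of its own, since it holds serine peptidases such as Lon, Clp and KEX1 and metallopeptidases such as methionine aminopeptidase 2, so these counts are not tallies of whole classes.

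Among those with a serine word, the subtilisin-type BKA90DRAFT_136161 had 214 and 346 CPM in F19, against 73.2 and 43.6 CPM in WLH, a rise of 4.79-fold (adjusted p = 0.00155). A bleomycin hydrolase gene, BKA90DRAFT_133388, a cysteine peptidase in the remainder, had 633 and 874 CPM in F19, against 206 and 118 CPM in WLH, and rose 4.65-fold. Another gene with the same description and ortholog number, BKA90DRAFT_134275, went the other way. It had 218 and 219 CPM in F19, against 311 and 322 CPM in WLH, and fell 1.45-fold (edgeR, adjusted p = 0.0116). BKA90DRAFT_132795, with the ortholog number of the vacuolar subtilisin-type proteinase B, which Pep4 activates in Saccharomyces cerevisiae, had 932 and 1229 CPM in F19, against 875 and 722 CPM in WLH, and did not pass (adjusted p = 0.0971). The gene described as an alkaline extracellular protease precursor, BKA90DRAFT_156695, was low, with 2.05 and 1.69 CPM in F19, against 2.85 and 3.79 CPM in WLH (adjusted p = 0.0647). The last 2 genes and BKA90DRAFT_134275 were picked after their values were seen. The list of 67 had 18 calls without WLH replicate 1 and 13 without WLH replicate 2, against 35 with all libraries, and the falls among genes with a metallopeptidase word then numbered 7 and 4. Over all genes the calls were 29.6% and 25.9% of those tested in these fits, against 51.4%. Some of its genes, such as those described as transpeptidase-like, may not break down proteins.

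**Figure D4:**
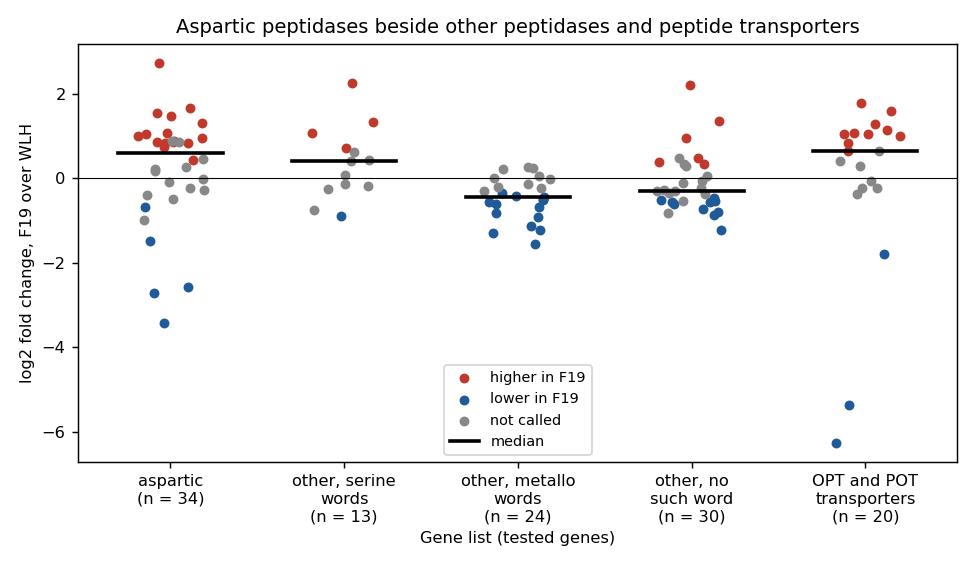
Log2 fold change of F19 over WLH for tested genes of the aspartic peptidase family, other peptidases grouped by words in their description, and the peptide transporters; red genes rose, blue genes fell, grey genes did not pass and black lines are medians. The medians are 0.60 for aspartic peptidases, 0.42 for genes with a serine word, -0.43 for those with a metallopeptidase word, -0.30 for those with neither and 0.66 for transporters.

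Peptide transporters of the OPT and POT families import the small peptides that proteases release. Of 20 tested, 10 rose, 3 fell and 7 did not pass, with a median log2 fold change of 0.66. The rises were 50% and the falls 15% of the 20, against 25.9% and 25.5% of all genes tested. Of the falls, 2 were larger than any rise. The OPT gene BKA90DRAFT_135239 had 0.467 and 0.496 CPM in F19, against 22.9 and 17.04 CPM in WLH, and fell 41.03-fold (adjusted p = 0.000167). That fold rests on 10 and 10 counts in F19, against 506 and 288 counts in WLH. The OPT gene BKA90DRAFT_141445 had 4 and 0 counts in F19, against 182 and 126 counts in WLH. It met the count filter through its WLH libraries, and the fitted log2 fold change of -6.26 (adjusted p = 0.000597) rests on those 4 counts in F19. The largest rise was 3.46-fold for the OPT gene BKA90DRAFT_156887, with 2.57 and 6.21 CPM in F19, against 1.54 and 0.947 CPM in WLH. That rise did not pass in limma on log2(FPKM + 1) (adjusted p = 0.0529), nor without F19 replicate 2 (log2 fold change 1.03, adjusted p = 0.102), WLH replicate 1 (0.0799) or WLH replicate 2 (0.144). The list had 8 calls without F19 replicate 2, 7 without WLH replicate 1 and 6 without WLH replicate 2, while calls over all genes were 45.1%, 29.6% and 25.9% of those tested.

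The pH-response pathway acts in Y. lipolytica on the genes of the acid and alkaline extracellular proteases. A list taken by words of that pathway showed 1 rise and 3 falls among 6, where 25.9% of all genes tested rose and 25.5% fell. It includes BKA90DRAFT_136613 and BKA90DRAFT_138791, whose descriptions name SUR7 beside PalI, and their role in the pathway was not tested. BKA90DRAFT_136613 is one of the falls (log2 fold change -0.40, adjusted p = 0.0467), and BKA90DRAFT_138791 did not pass. The transcription factor of that pathway, BKA90DRAFT_132978, did not pass (log2 fold change 0.14, adjusted p = 0.406). The PalH/RIM21 domain genes, of a family that senses ambient pH at the cell surface, went apart, with BKA90DRAFT_142901 (33.01 and 44.4 CPM in F19, against 14.3 and 21.7 CPM in WLH) rising 2.16-fold (adjusted p = 0.0085) and BKA90DRAFT_135840 falling 1.94-fold (adjusted p = 0.031). The palC gene BKA90DRAFT_134214 fell 1.47-fold. In edgeR 0 of the 6 passed without WLH replicate 1, where 4 had an unadjusted p under 0.05. The rise of BKA90DRAFT_142901 was lost in that fit alone among the alternatives (adjusted p = 0.0648). The falls of BKA90DRAFT_135840 and BKA90DRAFT_134214 were lost there (0.106 and 0.0898), in the fits lacking WLH replicate 2 (0.151 and 0.109) or F19 replicate 2 (0.113 and 0.0594), with library totals (0.0821 and 0.118) and in limma on log2(FPKM + 1) (0.082 and 0.103).

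Of 6 genes of the proton pump that acidifies the vacuole, and of its assembly, 3 fell and 0 rose in edgeR as in DESeq2, and 0 were higher at an unadjusted p under 0.05 in either. The 3 calls are near the share over all genes, of which 51.4% passed. The assembly factor VMA21, BKA90DRAFT_135814, had 10.7 and 7.15 CPM in F19, against 17.6 and 19.2 CPM in WLH, and fell 2.05-fold (adjusted p = 0.00972). A 116 kDa V0 subunit gene, BKA90DRAFT_112149, fell 1.46-fold (adjusted p = 0.0107). Another gene with the same description and ortholog number, BKA90DRAFT_135671, did not pass (log2 fold change -0.06, adjusted p = 0.721). Leaving out either WLH library ended all 3 calls in edgeR, with 3 genes lower at an unadjusted p under 0.05 when replicate 1 was missing and 2 when replicate 2 was. For BKA90DRAFT_135814 the adjusted p was then 0.0545 and 0.0736, and for BKA90DRAFT_112149 it was 0.0645 and 0.0793. With library totals 1 of the 6 genes passed, and BKA90DRAFT_112149 did not (adjusted p = 0.0761), nor did it in limma on log2(FPKM + 1) (0.0667).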

How the data were processed

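Per the labels' protocols, libraries were made from fragmented poly(A) RNA with random priming and read from both ends. Per the submitters' processing notes, the tools were HISAT2 2.2.1, HTSeq 0.6.1, cutadapt 1.9.1 and DESeq2; settings, strand and build are not given in these sources. Per the file headers, the authors deposited raw counts, FPKM and exonic lengths for every gene, and for genes they called a mean normalised signal, a linear ratio (fold), a log2 fold change with its error, a test score and p-values. In the header of WLH replicate 1 a letter I replaces the digit. Coordinates are those of the deposited table. The 3 construct rows, which name no gene, held from 0.134% to 0.387% of counts per library and were left out.

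The deposited counts went into edgeR 4.0.16, run in R 4.3.3 (filterByExpr, TMM factors from 0.916 to 1.10, glmQLFit and glmQLFTest, two-sided, strain as the only term, all 4 libraries). P-values were adjusted over the 6414 tested genes by the Benjamini-Hochberg method, and 0.05 was the threshold. Standard errors were obtained as log2 fold change over the root of F. Alternatives used DESeq2 1.42.0, limma 3.58.1 on log2(FPKM + 1) with a mean FPKM of at least 1, other scalings and filters, blocks and left-out libraries. The members and lists were chosen with earlier results of these data known. Values in every library are given for members called with 2-fold changes or more and for the 5 of highest mean FPKM, 13 in all. From each other list up to 3 called genes of largest change are named, with values in every library for some of them. Of the 42 members, 0 matched the RefSeq gene table, and no sequence is shown. Reads shared by near-identical copies cannot be told apart from these counts. Intervals were not given, and counting error is one part of the spread between libraries.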

Additional observations from a re-analysis of the deposited data

How the results depend on the processing

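Over 15 alternatives, 10 of the 21 called members kept their call in every one, and 0 called members changed direction. Without WLH replicate 1 or WLH replicate 2, 13 and 12 of the 21 remained called in the same direction. Leaving out 1 library at a time gave 9 to 18 rises and 4 to 8 falls among members, and a member median from 0.29 to 0.80. It gave 13 to 34 calls among other peptidases, 6 to 14 among peptide transporters, 0 to 4 in the pH-response list and 0 to 3 in the proton pump list. The member median was 0.96 in limma with a pseudocount of 0.1, against 0.24 for all genes. With library totals, 17 members rose and 5 fell and 69.4% of all calls were rises, against 50.4% with TMM; the pH-response list then had 2 calls and the pump list 1. Limma gave the pump list 1 call with a pseudocount of 1 and 1 with 0.1. With no filter it gave 0, and 1 in the pH-response list. The log2 ratio of summed levels was 0.24 in CPM, 0.28 in deposited FPKM and 0.86 without the highest member. The cause of these shifts was not tested.

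The libraries share only a replicate number, and the correlation of deviations of same-numbered libraries was -0.11. With the replicate block, 16 members rose and 5 fell; with the crossed pairing, added after the data were seen as were the alternatives for the pH-response and pump lists, the counts were also 16 and 5. Depth limits the 8 untested members, which had at most 17 counts.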
